A study of Mus musculus with 80 samples.

Results

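The genes described here are 8 genes of myelin and of the Schwann cell lineage, *Mobp*, *Mbp*, *Pmp22*, *Mal*, *Cnp*, *Sox10*, *S100b* and *Cdh19*, out of 25899 genes measured in muscle stem cells (MuSCs). They were chosen by their RPM in these same libraries, foremost the difference between extraocular muscle (EOM) and *Tibialis anterior* (TA) before grafting, so that difference and the changes that follow from it are given as descriptions without a test. MuSCs were sorted by nuclear GFP driven by *Pax7* (Tg:Pax7-nGFP donors on C57BL/6;DBA2 F1/JRj, males of 7.6 weeks in Experiment 1 and 7 weeks in Experiment 2) from EOM and TA of each of 10 donors, 500 cells a library. Cells of both muscles were also grafted, each into 1 pre-injured TA of the same immunodeficient Rag2-/-;γC-/- host on C57BL/6J. The injury was cardiotoxin given the day before. The grafted cells were sorted again by GFP, after 21 days according to the labels. The paper gives a longer time in its results and a range of weeks in its methods. A passing graft library held a median of 35 EOM-derived cells, 9 at the lowest, or 16 to 67 TA-derived cells, by the labels, from which a table of the study differs for some libraries. The quality check of the study passed 30 of the 40 RNA libraries, 8 EOM and 8 TA pre-graft and 7 EOM and 7 TA post-graft. These were compared. The EOM pre-graft library of mouse 3 of Experiment 2 was left out as an outlier of its group and not by a limit.

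Myelin is the stack of glial membrane around an axon, made in the central nervous system by oligodendrocytes and in peripheral nerves by Schwann cells. The 2 kinds share compaction proteins such as myelin basic protein and differ in others: MOBP is known from oligodendrocytes, while PMP22 belongs to peripheral myelin. SOX10 is the transcription factor that both lineages need, and also melanocytes, which like Schwann cells come from the neural crest. Skeletal muscle is crossed by motor and sensory nerve branches ensheathed by Schwann cells.

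All 8 genes are annotated as protein-coding (GENCODE M21, GRCm38). *Mobp* (ENSMUSG00000032517) lies on chromosome 9 from 120149742 to 120181484, *Mal* (ENSMUSG00000027375) on chromosome 2 from 127633226 to 127656695 and *Pmp22* (ENSMUSG00000018217) on chromosome 11 from 63128982 to 63159547. *Cnp* (ENSMUSG00000006782) lies on chromosome 11 from 100574904 to 100591729 and overlaps *Dnajc7* on the other strand, and *S100b* (ENSMUSG00000033208), on chromosome 10 from 76253853 to 76261159, overlaps *Dip2a* on the other strand. The quality table of the study puts about as many reads on the sense strand as on the other in each library. Strand therefore does not tell the reads of those pairs apart where the genes overlap. The gene of *Mbp* (ENSMUSG00000041607) includes the Golli transcripts, which cells other than myelinating glia also make. *Sox10* (ENSMUSG00000033006) lies on chromosome 15 from 79154913 to 79164490 and *Cdh19* (ENSMUSG00000047216) on chromosome 1 from 110889195 to 110977372.

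Sox proteins bind a core of the letters ACAAAG or ACAATG, and the promoter windows of RefSeq (build GRCm38.p6, 250 bases before to 50 bases after a start site) were searched for both on both strands, since *Sox10* is 1 of the genes. Windows were found for 5 of the 8 genes, and of 32851 windows of all genes 28.6% hold at least 1 match. The *Mobp* window (chr9:120149492-120149791, plus strand) holds 6 matches, all as CTTTGT, the reverse complement of ACAAAG, and it was the 1 window among all with at least 6. The *Cnp* window (chr11:100574689-100574988, plus strand) holds 1 match. The windows of *Mal* and *S100b* and the 4 windows of *Pmp22* hold none. The 2 windows with matches are printed 5′ to 3′, with that of *Pmp22* (chr11:63128732-63129031, plus strand) as a myelin gene without one, matches in capitals:
Mobp: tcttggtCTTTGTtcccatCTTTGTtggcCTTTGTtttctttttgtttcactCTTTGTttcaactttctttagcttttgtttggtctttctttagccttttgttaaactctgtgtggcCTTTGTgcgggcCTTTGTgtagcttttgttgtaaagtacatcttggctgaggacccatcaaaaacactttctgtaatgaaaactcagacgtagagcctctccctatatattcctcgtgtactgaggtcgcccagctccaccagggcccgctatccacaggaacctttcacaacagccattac
Cnp: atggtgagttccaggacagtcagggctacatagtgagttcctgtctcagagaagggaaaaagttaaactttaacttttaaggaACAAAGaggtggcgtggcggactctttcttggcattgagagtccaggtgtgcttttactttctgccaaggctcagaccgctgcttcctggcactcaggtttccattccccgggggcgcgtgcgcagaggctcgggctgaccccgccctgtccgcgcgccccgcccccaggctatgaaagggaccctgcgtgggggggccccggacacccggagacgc
Pmp22: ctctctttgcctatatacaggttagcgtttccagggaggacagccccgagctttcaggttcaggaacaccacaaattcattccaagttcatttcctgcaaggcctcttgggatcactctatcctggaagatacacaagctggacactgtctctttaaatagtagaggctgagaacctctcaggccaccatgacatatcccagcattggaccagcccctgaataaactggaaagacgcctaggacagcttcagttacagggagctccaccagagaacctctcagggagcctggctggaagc
A match is a run of letters and no measured binding site, and several of those of *Mobp* lie in a stretch rich in T.

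Total reads a passing library ran from 3326270 to 14402975, of which 963432 to 4169357 could be recovered as reads on genes. Values are RPM, the reads of a gene scaled to the size of the library, and 1 read was worth 0.350 to 1.55 RPM. All 8 markers of MuSCs were read in every passing pre-graft library, at a summed 13277 to 17547 RPM in EOM and 11988 to 22397 RPM in TA, and 7 or 8 of them in every graft, at 1216 to 14112 RPM in EOM and 197 to 9398 RPM in TA grafts. Reads of mitochondrial genes took a median of 3.56% in EOM and 10.7% in TA before grafting and 33.04% and 25.3% after it. Their part in the RPM of other genes was not tested, and which reads RPM is scaled to is not given. These are sums over 500 or fewer cells, so fewer cells of a type and less RNA in each of them cannot be told apart, and which of the sorted cells gave the reads of the 8 genes was not tested.

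Before grafting, the oligodendrocyte myelin gene *Mobp* was read in all 8 EOM libraries and in none of the 8 TA libraries. In EOM it had 10 reads at the lowest (3.77 RPM), a median of 134 RPM and 3514 reads at the highest (1320 RPM). The library of mouse 6 of Experiment 2 held 59.0% of the summed *Mobp* RPM of the group. The others were at 423 RPM (mouse 1), 184 RPM (mouse 2), 16.8 RPM (mouse 5) and 3.77 RPM (mouse 4) in Experiment 2 and at 20.5, 165 and 104 RPM in mice 3, 4 and 5 of Experiment 1. Thus 5 EOM libraries were above 100 RPM and the other 3 below 21 RPM, and no EOM library overlapped TA. Of 13217 genes tested, 1.82% did not overlap with EOM higher, and *Mobp* was chosen for that contrast. Against the RPM that 3 reads would give in TA, averaged over its libraries, the mean of EOM was at least 141-fold higher, and without mouse 6 at least 66.04-fold higher. The mean log2 RPM was 6.38 ± 2.75 (SD, n = 8) in EOM, with TA at the value of no read.

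*Mbp*, which encodes the membrane-compacting protein of both kinds of myelin, followed *Mobp* from library to library in EOM. It ran from 12.1 RPM (mouse 4 of Experiment 2) over a median of 336 RPM to 2431 RPM (mouse 6, 6471 reads), and its log2 RPM had a Pearson r of 0.97 with that of *Mobp* over the 8 libraries. In TA it ran from 0 over a median of 4.24 to 165 RPM, the highest again being mouse 6 of Experiment 2, which held 81.5% of the summed *Mbp* RPM of TA. The other 7 TA libraries were at or under 17.5 RPM, so the highest TA library lay above the 3 lowest EOM libraries and that of mouse 1 (17.5 RPM) above 2 of them. The log2 difference of EOM minus TA was 5.17 (SE 1.16).

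Among the genes of peripheral myelin and of myelin membranes, *Pmp22* was present throughout, as were *Mal* and *Cnp* at lower levels. *Pmp22*, a tetraspan protein of compact peripheral myelin, ran from 323 over a median of 535 to 2427 RPM in EOM and from 157 over 466 to 803 RPM in TA, and the groups overlapped. *Mal*, a proteolipid of myelin vesicle traffic, ran from 7.14 over 15.8 to 60.9 RPM in EOM and from 2.74 over 4.47 to 43.8 RPM in TA. *Cnp*, the cyclic nucleotide phosphodiesterase of non-compact myelin, ran from 22.6 over 40.3 to 71.7 RPM in EOM and from 9.58 over 14.7 to 130 RPM in TA. The highest TA library of all 3 was that of mouse 6 of Experiment 2. The log2 differences of EOM minus TA were 0.62 (SE 0.36) for *Pmp22*, 1.59 (SE 0.60) for *Mal* and 1.05 (SE 0.45) for *Cnp*.

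The genes that mark the Schwann cell lineage itself were sparse. *Sox10* was read in 4 of 8 EOM libraries, at up to 45.1 RPM (mouse 2 of Experiment 2, 129 reads), and in 2 of 8 TA libraries, at up to 10.1 RPM. *S100b*, a calcium-binding protein of Schwann cells and astrocytes, was read in 6 EOM libraries at up to 84.0 RPM (mouse 2) and in 3 TA libraries at up to 6.49 RPM. *Cdh19*, a cadherin of Schwann cell precursors and glia, was read in 2 EOM libraries at up to 8.40 RPM (24 reads) and in 1 TA library at 26.4 RPM (65 reads). *Cdh19* alone of the 8 genes did not pass the filter on low values of this comparison (at least 4 of the libraries compared beyond a log2 RPM of 1). The 7 genes that passed all had a higher mean in EOM, which the choice of the genes fixed, and the median over all genes tested was 0.30. Of all genes tested, 3.31% were called higher and 1.26% lower in EOM (adjusted p under 0.05 in limma and a log2 difference beyond 1).

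**Figure D1:**
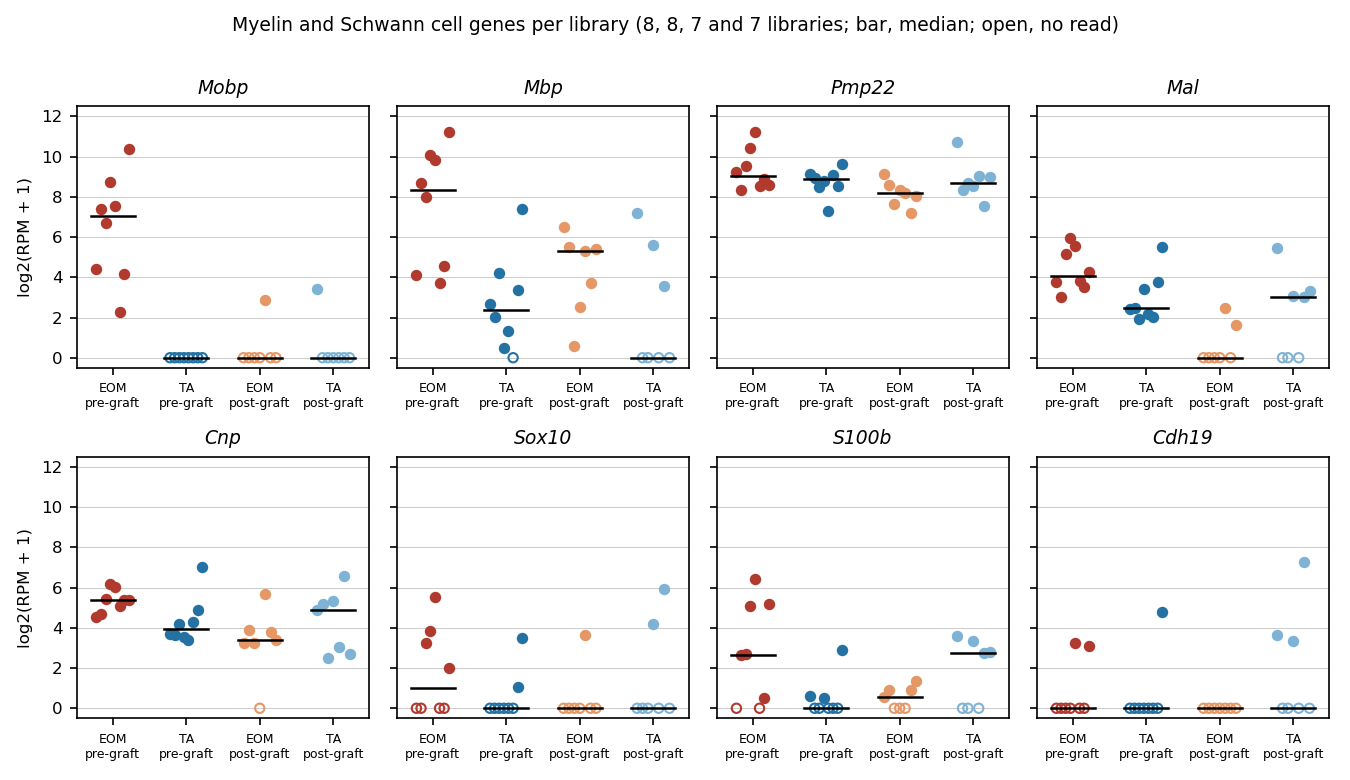
Each panel plots 1 gene, with log2(RPM + 1) on the vertical axis and the 4 groups of passing libraries on the horizontal axis. Points are libraries, open points have no read and bars are medians. *Mobp* is above 0 in all 8 EOM pre-graft libraries, in no TA pre-graft library and in 1 graft library of each muscle.

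Per kilobase of merged exons, the median levels in EOM pre-graft libraries ranked *Pmp22* first (227 RPM per kb, range 137 to 1031), before *Mbp* (39.7, range 1.43 to 287), *Mobp* (19.6, range 0.551 to 193), *Cnp* (11.1, range 6.22 to 19.7), *Mal* (5.69, range 2.57 to 21.9), *S100b* (3.57, range 0 to 56.6), *Sox10* (0.493, range 0 to 14.8) and *Cdh19* (0, range 0 to 1.96). The ranges of all neighbours in that order overlapped, and only genes further apart in it, such as *Pmp22* and *Cnp*, had ranges that did not overlap.

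The EOM libraries did not all carry the same genes of the set. Mouse 6 of Experiment 2 was highest for *Mobp* and *Mbp*, mouse 2 for *Pmp22*, *Sox10*, *S100b* and *Cdh19*, and mouse 1 for *Mal* and *Cnp*. In mouse 2, *Sox10*, *S100b* and *Cdh19* together came to 137 RPM against 46.2 RPM in mouse 6, while *Mobp* and *Mbp* together came to 1097 RPM in mouse 2 against 3752 RPM in mouse 6. *Pmp22* was at 390 RPM in mouse 6, below the median of EOM. The libraries of mice 4 and 5 of Experiment 2 and of mouse 3 of Experiment 1 had the least of both sums. Of the 8 genes, 5 to 8 were read in an EOM library, and all 8 in those of mice 2 and 6.

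Some genes of Schwann cells and of oligodendrocytes outside the set also differed between these libraries. *Prx*, periaxin of myelinating Schwann cells, had 345 reads in mouse 2, 81 in mouse 1, 74 in mouse 5 of Experiment 1 and 4 in mouse 6. *Ncmap*, another protein of peripheral myelin, had 227, 90, 31 and 0 reads in those 4 libraries. *Bcas1*, a gene of young myelinating oligodendrocytes, had 330 reads in mouse 6 and 89 in mouse 2. Thus mouse 6 was high in *Mobp*, *Mbp* and *Bcas1* without *Ncmap*, and mouse 2 was high in *Ncmap* and *Prx* as well. Each is a single library, and *Prx* and *Ncmap* come from a list of 26 Schwann cell genes. Mouse 6 still had 95 reads of *S100b*, 20 of *Cdh19* and 8 of *Sox10*. The oligodendrocyte regulator *Olig1*, the myelin genes *Opalin* and *Mog* and the tight junction gene *Cldn11*, chosen after their values were seen, had at most 3 reads each in any of the 8 passing EOM libraries.

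**Figure D2:**
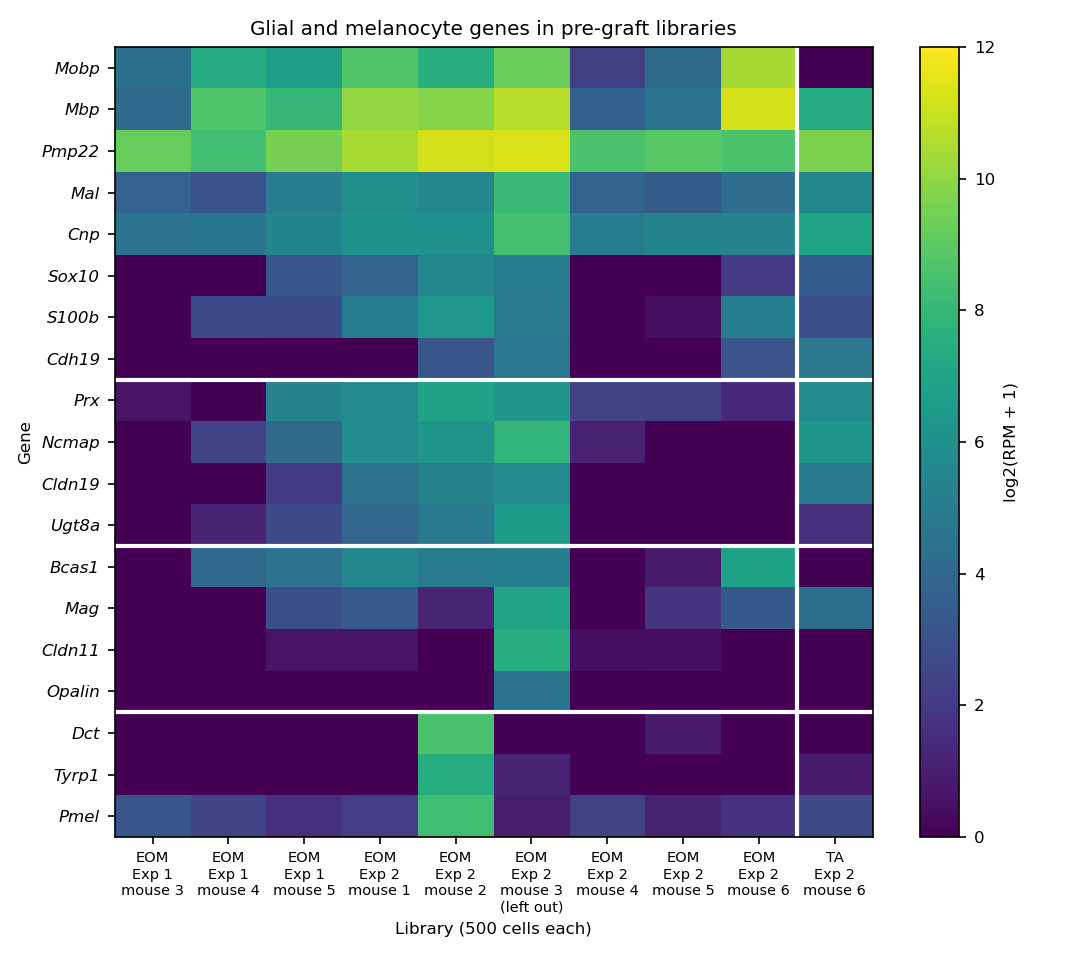
Colour gives log2(RPM + 1) of the 8 genes (top block), of 4 Schwann cell genes, 4 oligodendrocyte genes and 3 melanocyte genes (blocks below) in 9 EOM libraries and, at the right, the TA library that stands apart. *Ncmap* has no read in EOM of mouse 6, where *Mobp* and *Mbp* are highest, and *Dct* is at 1076 reads in EOM of mouse 2 and at most 2 in the other libraries shown.

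The library of mouse 2 also carried other cells' genes. *Dct*, *Pmel* and *Tyrp1*, genes of pigment synthesis and of the melanosome, had 1076, 910 and 490 reads there, against at most 2, 15 and 0 in the other 7 passing EOM libraries. The summed melanocyte list was at 1070 RPM in mouse 2 and at 6.39 to 35.8 RPM in the others. The macrophage and leukocyte list came to 1436 RPM in mouse 2, led by *Lyz2*, and to 22.6 to 102.95 RPM in the others. The part of these cells in the *Sox10* reads of mouse 2 was not tested. Of the other lists, photoreceptor, pigment epithelium and lens genes summed to at most 11.0 RPM in EOM and 6.02 RPM in TA. The sums of the astrocyte and Müller glia list (814 to 1306 RPM in EOM, 696 to 1242 in TA) came mainly from *Glul*, which had reads in every passing library, while *Aqp4* had no read in any pre-graft library and *Gfap* at most 8 reads. The neuron list (94.8 to 219 RPM in EOM, 111 to 194 RPM in TA) was likewise mostly *Map2*. The endothelial list summed to 97.1 to 548 RPM in EOM and 15.1 to 1815 RPM in TA, the fibroblast list to 1687 to 3764 and 1347 to 2250 RPM, and the myofibre list to 18.0 to 81.5 and 26.1 to 266 RPM.

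In TA before grafting, 1 library was the highest for 7 of the 8 genes, and it held 21.6% of the group's *Pmp22*. Mouse 6 of Experiment 2 had 7 of the 8 genes, with 65 reads of *Cdh19*, 25 of *Sox10*, 16 of *S100b*, 108 of *Mal*, 321 of *Cnp*, 406 of *Mbp* and 1979 of *Pmp22*. It also had 199 reads of *Ncmap* and 125 of *Prx*, and no read of *Mobp* or *Bcas1*. EOM of the same donor had 3514 reads of *Mobp* and none of *Ncmap*. Without *Pmp22*, the 7 remaining genes summed to 382 RPM in this TA library and to 14.6 to 52.4 RPM in the other 7.

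**Figure D3:**
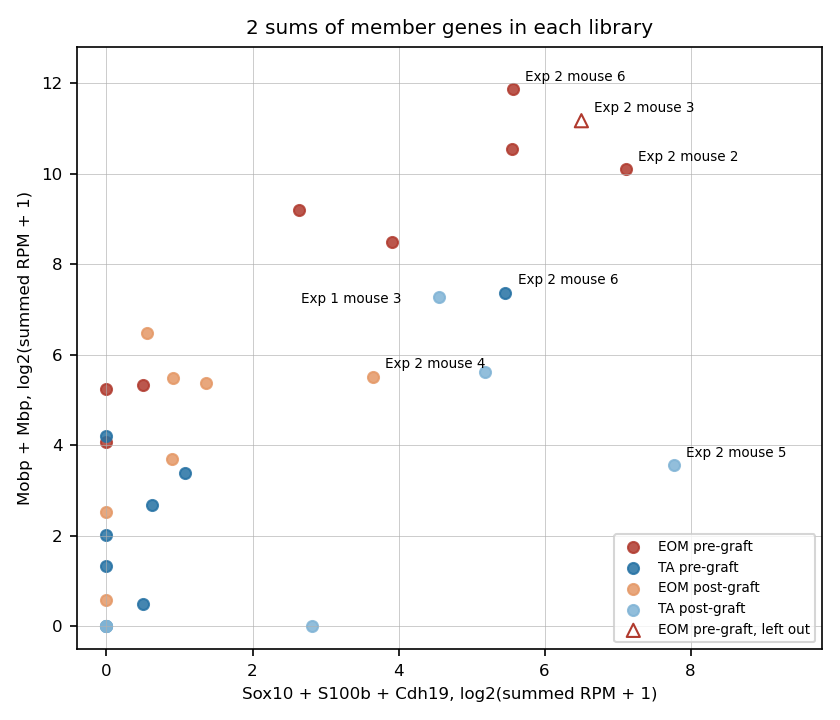
Each point is a library, with the summed RPM of *Sox10*, *S100b* and *Cdh19* on the horizontal axis and that of *Mobp* and *Mbp* on the vertical axis, both as log2(sum + 1), coloured by group, the open triangle being the EOM library of mouse 3 of Experiment 2 that was left out. EOM of mouse 6 (46.2 and 3752 RPM) leads the vertical axis and the TA graft of mouse 5 (217 and 10.8 RPM) the horizontal one.

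Likeness to *Mobp* was described by Pearson r of log2 RPM over the 8 EOM pre-graft libraries, among 12173 genes outside the set. *Bcas1* came first (r = 0.96), and the first 10 also held *Krba1* (0.95), *Lrrc8e* (0.92), *Ostf1* (0.91), *Bbs4* (0.91), *Nhlrc2* (0.91), *Gm11818* (0.90) and *Itga2b* (0.89). Within the set, r with *Mobp* was 0.97 for *Mbp*, 0.89 for *S100b*, 0.66 for *Cdh19*, 0.65 for *Sox10*, 0.45 for *Mal* and for *Cnp*, and 0.29 for *Pmp22*. For the mean of *Sox10*, *S100b* and *Cdh19*, each standardised, the first 10 held *Gm1614*, *Scp2-ps2*, *Plekha5*, *Fh1*, *Aff2*, *Zfhx2*, *Postn* and *Fgf1*, with r from 0.97 to 0.90. The median r over all genes was -0.06 with *Mobp* and -0.09 with that mean. With 8 libraries and 12173 genes compared, high values of r are many. Without mouse 6 only 4 of the first 10 for *Mobp* were again among the first 10. For the mean of *Sox10*, *S100b* and *Cdh19* only 3 were, without the library highest in it. With Spearman rho in place of r, 8 were shared for *Mobp* and 5 for that mean.

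Of 26 Schwann cell genes outside the set, 20 were tested between EOM and TA before grafting, 1 was called higher in EOM and none lower. That gene was *Cadm4*, an adhesion molecule of Schwann cells at the axon, at 87.8 to 161 RPM in EOM and 36.9 to 141 RPM in TA (log2 difference 1.00, SE 0.23, limma adjusted p 0.0073), which lies at the limit of 1 and is read in every library. The median log2 difference of the list was 0.71, against 0.30 over all genes. Of 21 oligodendrocyte genes (4 of them in both lists), 11 were tested, 1 was called higher and none lower, with a median of 0.10. That gene was *Bcas1*, with 0 to 330 reads in EOM and at most 3 in TA (log2 difference 3.52, SE 1.06, limma adjusted p 0.042). Without EOM of mouse 6 of Experiment 2 neither gene was called, and over the 16 fits that each left out 1 library *Bcas1* was not called in 12 and *Cadm4* in 8. These shares, 1 of 20 and 1 of 11, stand beside 4.56% of all genes called in either direction.

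After grafting, *Mobp*, *Mal*, *Sox10*, *S100b* and *Cdh19* had few or no reads in most EOM-derived grafts, while *Pmp22*, *Mbp* and *Cnp* were still read in at least 6 of 7 grafts. Of 7 EOM grafts, 6 had no read of *Mobp*, and that of mouse 4 of Experiment 2, with 9 cells, had 11 reads (6.32 RPM). *Mal* was read in 2 grafts, with 8 and 4 reads, and in all 8 libraries before grafting at 7.14 RPM or more, so the groups did not overlap. Of all genes tested, 11.2% did not overlap with the graft lower and 0.168% with it higher. *Sox10* was read in 1 graft (mouse 4, 20 reads), *S100b* in 4 with at most 3 reads, and *Cdh19* in none. *Mbp* was read in all 7 grafts, at 0.505 over a median of 38.5 to 88.1 RPM, *Cnp* in 6 at up to 51.2 RPM and *Pmp22* in all 7 at 147 over 293 to 570 RPM. In these grafts 3 reads were worth 1.41 to 2.63 RPM, a limit that covers counting error only, so the single reads of *Mbp* and *S100b* counted here lie under it, and a gene without a read may still be present below it.

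The log2 differences of post-graft minus pre-graft EOM were -6.70 (SE 1.02) for *Mobp*, -4.37 (SE 0.71) for *Mal*, -3.58 (SE 1.17) for *Mbp*, -2.71 (SE 1.08) for *S100b*, -2.17 (SE 0.68) for *Cnp*, -1.33 (SE 1.04) for *Sox10* and -1.19 (SE 0.40) for *Pmp22*, and *Cdh19* did not pass the filter. The median over all genes was -1.48, so *Pmp22* and *Sox10* lay above it and the other 5 below it. Of all genes tested, 55.8% were called lower and 3.51% higher by limma in this comparison. With each library centred on its median, *Pmp22* was at 0.06 instead, and with DESeq2 *Cnp* was at 0.07. In mean RPM, *Mobp* was at 280 before and 0.904 after grafting, *Mal* at 25.4 and 0.957, *S100b* at 20.4 and 0.539, *Mbp* at 642 and 32.6, *Sox10* at 8.74 and 1.64, *Cnp* at 42.3 and 14.9 and *Pmp22* at 838 and 310.1.

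For 6 donors EOM passed both before and after grafting. *Mobp* was lower after grafting in 5 of them, where it had no read, and higher in mouse 4 of Experiment 2 (3.77 and 6.32 RPM). In mouse 6 of Experiment 2 *Mobp* went from 1320 RPM to no read in 33 cells, at least 840-fold lower against 3 reads. The same bound was 161 for mouse 1, 122 for mouse 2 and 6.55 for mouse 5 of Experiment 2, and 117 for mouse 4 of Experiment 1. *Mal* was lower in 6 of 6 donors, *Mbp*, *Cnp* and *Pmp22* in 5 of 6 and *S100b* in 4 of 6. Such donor counts were not made over all genes, of which limma called 55.8% lower in EOM after grafting. *Sox10* was lower in 3 donors and higher in 1, and *Cdh19* was lower in the 2 that had it. *Mbp* of mouse 6 went from 2431 to 40.9 RPM and that of mouse 2 from 913 to 0.505 RPM.

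**Figure D4:**
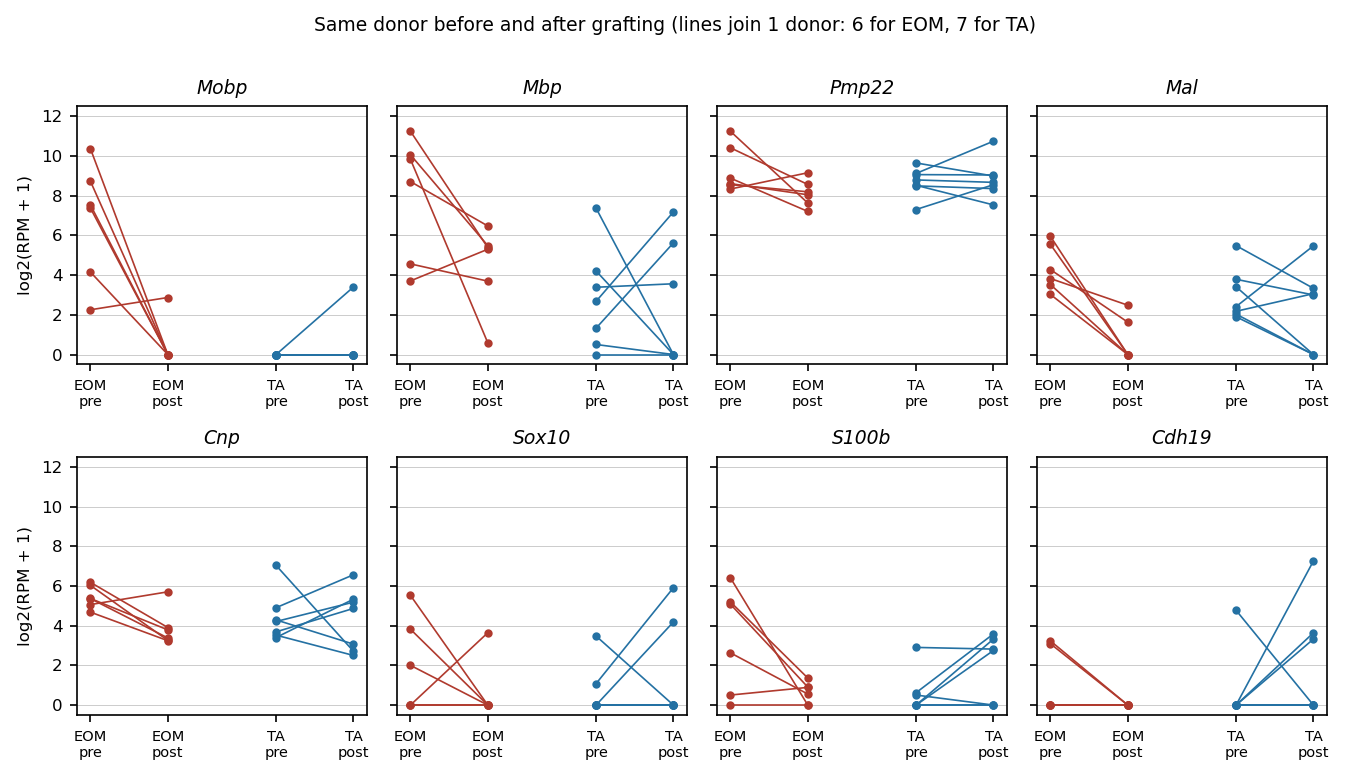
Lines join the pre-graft and post-graft library of the same donor for EOM (6 donors, red) and TA (7 donors, blue), with log2(RPM + 1) on the vertical axis and 1 gene a panel. *Mobp* ends without a read in 5 of 6 EOM donors, and *Mal* is lower in 6 of 6. In EOM after grafting, limma called 55.8% of all genes tested lower.

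Markers of other cells moved with grafting as well. The MuSC list had all 8 of its genes called lower after grafting in EOM, where 55.8% of all genes were, and all 8 in TA, where 30.9% were. The endothelial list had 6 of 7 genes called higher in each, with sums of 160 to 4334 RPM in EOM grafts and 898 to 5305 RPM in TA grafts, both overlapping those before grafting. The myofibre list had 6 of 7 genes called higher in EOM grafts and 1 of 7 in TA grafts, and of all genes 3.51% and 3.79% were called higher. The part of these shifts, and of the lower cell number of the grafts, in the values of the 8 genes was not tested.

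In TA-derived grafts *Pmp22* and *Cnp* were read in all 7 libraries and *Mal* and *S100b* in 4, while *Mobp*, *Sox10*, *Mbp* and *Cdh19* were read in 1 to 3. *Cdh19* had 239 reads (152 RPM) in mouse 5 of Experiment 2, 24 in mouse 3 of Experiment 1 and 11 in mouse 3 of Experiment 2, and none in the other 4. *Sox10* had 93 reads in mouse 5 and 21 in mouse 3 of Experiment 2 and none elsewhere. *S100b* was read in 4 of 7 grafts, at 5.74 to 11.0 RPM. *Mobp* had 20 reads in mouse 3 of Experiment 1, together with 302 of *Mbp*, 91 of *Mal*, 3593 of *Pmp22* and 134 of *Prx*, and *Mobp* had none in the other 6. The graft of mouse 5, with *Cdh19* and *Sox10*, had no read of *Prx* and 311 reads of *Ngfr*, the neurotrophin receptor of immature Schwann cells, which had no read in the other 6 TA grafts. *Prx* also had 43 reads in mouse 3 of Experiment 2, so it was highest with *Pmp22* in 1 graft and without a read where *Cdh19* was highest.

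Within TA, the log2 differences of post-graft minus pre-graft libraries were 1.60 (SE 0.85) for *S100b*, 1.53 (SE 1.14) for *Cdh19*, 0.11 (SE 0.41) for *Pmp22*, -0.05 (SE 0.72) for *Cnp*, -0.59 (SE 1.31) for *Mbp* and -1.07 (SE 0.99) for *Mal*, beside a median of -1.09 over all genes. *Mobp* and *Sox10* did not pass the filter. The values of all 8 genes overlapped between the stages, where 4.99% of all genes tested did not overlap with the graft lower and 0.214% with it higher. The signs of *Mbp* and *Cnp* turned under both scalings and both count tests, that of *Mal* under both count tests, and that of *Pmp22* with Experiment 2 alone and with all libraries. Of all genes tested, 30.9% were called lower and 3.79% higher in TA grafts.

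The change of EOM minus that of TA was below 0 for all 8 genes, from -7.30 (SE 1.27) for *Mobp* and -4.31 (SE 1.40) for *S100b* to -1.30 (SE 0.58) for *Pmp22*, beside a median of -0.31 over 14428 genes. It holds the pre-graft contrast that chose the genes and is given as a description. Of all genes tested, 0.208% were called, 0.152% lower and 0.0554% higher. None of the 22 Schwann cell or 13 oligodendrocyte genes tested outside the set was called in this contrast.

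Between the grafts themselves, EOM-derived and TA-derived cells were compared for the 5 genes that passed the filter, as a description, since the genes were chosen with these values known. *S100b* passed it through 4 TA grafts alone. The log2 differences of EOM minus TA were 2.17 (SE 1.32) for *Mbp*, -0.68 (SE 0.48) for *Pmp22*, -1.07 (SE 0.95) for *Cnp*, -1.71 (SE 1.03) for *Mal* and -1.79 (SE 0.90) for *S100b*. Of all 12377 genes tested, limma called 0.0%, where 452 had an unadjusted p under 0.05. Over all genes edgeR called 0 and DESeq2 3. *Mobp* stood at 1 of 7 libraries with reads in each kind of graft, at 6.32 RPM in EOM and 9.56 RPM in TA. With edgeR and DESeq2 *Mbp* was at -0.27 and -0.35. The values of the grafts overlapped for all 8 genes, and 0.0162% of genes tested did not overlap with EOM lower. A count of 0 with 7 libraries a group does not show that the grafts were alike.

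Schwann cell genes outside the set that were called after grafting were mostly ones that every pre-graft library held. In EOM, 6 of 20 tested were called lower and none higher, among them the transcription factor *Egr2* (-3.79, SE 0.58, limma adjusted p 0.00014), *Lgi4* (-3.29, SE 0.69), *Cadm4* (-3.22, SE 0.68), *Ngfr* (-2.80, SE 0.95) and *Drp2* (-1.81, SE 0.51). *Egr2* and *Drp2* were at 121 RPM or more in all 16 passing pre-graft libraries, EOM and TA alike. The list had a median of -1.17 against -1.48 over all genes, and 59.3% of all genes were called. In TA, *Egr2* (-3.38, SE 0.48), *Drp2* (-2.17, SE 0.39) and *Cadm4* (-3.79, SE 0.76) were called lower and *Art3* (2.60, SE 0.57) higher, 4 of 20 tested, beside 34.7% of all genes. Of the oligodendrocyte genes, 4 of 12 were called in EOM, among them *Aspa* and *Sox8* lower and *Gpr17* higher, and *Sox8* lower and *Tspan2* and *Enpp6* higher were called in TA (3 of 9).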

How the data were processed

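RNA of 40 libraries was made with G&T-seq, and the authors trimmed reads with Trim Galore 0.4.4, aligned them to GRCm38 with HISAT2 2.1.0 and deposited log2 RPM per gene made in SeqMonk. Which reads RPM is scaled to is not given in the sources used here. The authors' deposited quality table gives total reads as counts and the share of reads in genes, exons and mitochondria as percent. The 40 bisulfite libraries were not analysed here.

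Of 25965 table entries, 25899 genes were kept. A gene without a read holds the value of 0.9 of a read, and whole reads were recovered from the log2 RPM steps: 100% of 282963 values below 50 reads were within 0.1 of a whole number. Reads on genes are these recovered counts. The quality check of the study left out 10 libraries, 1 of them as an outlier of its group. Genes above a log2 RPM of 1 in at least 4 of the libraries compared were fitted with limma 3.58.1 (R 4.3.3) with a trend, and called at a Benjamini-Hochberg adjusted p under 0.05 and a log2 difference beyond 1. Log2 differences are on the deposited log2 RPM scale and understate changes of genes near 0 reads. edgeR 4.0.16 and DESeq2 1.42.0 ran on recovered reads as alternatives, with other filters, scalings, libraries and a donor block. The limma fit of EOM and TA before grafting was tried on simulated counts, with changes set in well-read genes only. The fits with grafts, edgeR and DESeq2 were not tried in that way.

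The members and lists were chosen with earlier results of these data known. Named were the members, Schwann cell and oligodendrocyte genes called in a comparison or with reads in at least 4 EOM pre-graft libraries, up to 3 most-read genes of each other list and the 10 genes most like each profile, and others were chosen after their values were seen. Some genes that this rule names are not reported here. Same-numbered libraries of EOM and TA, and before and after grafting, come from the same donor. The deviations of paired libraries from their group means correlated at -0.0655 to 0.178 over 7 EOM and TA pairs before grafting, -0.222 to 0.096 over 6 EOM pairs across grafting, -0.0688 to 0.104 over 7 TA pairs and -0.117 to 0.0887 over 6 pairs of grafts. Libraries of different donors are the replicates.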

Additional observations from a re-analysis of the deposited data

Results flagged for a closer look

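In 8 of 32 sets of a gene and a group, 1 library stood apart from the rest by its gap to the nearest other library. Chance gives about 1 in 20 for values that vary freely, a rate that does not hold here. In 4 of the 8 sets all other libraries had no read, so a library well above their no-read values stood apart. The genes were also chosen with these values known. In TA before grafting the library was that of mouse 6 of Experiment 2 each time, at 130 RPM of *Cnp*, 10.1 RPM of *Sox10*, 6.49 RPM of *S100b* and 26.4 RPM of *Cdh19*. In EOM grafts, that of mouse 4 of Experiment 2, with 9 cells, stood apart with 6.32 RPM of *Mobp* and 11.5 RPM of *Sox10*, and that of mouse 3 of Experiment 2 was the lowest for *Cnp*, at 0. In TA grafts, that of mouse 3 of Experiment 1 stood apart with 9.56 RPM of *Mobp*.

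The EOM pre-graft library of mouse 3 of Experiment 2, left out of the comparisons by the study as an outlier of its group, was above the highest TA library for 7 of the 8 genes. It held 612 RPM of *Mobp* (1398 reads), 1694 RPM of *Mbp*, 2640 RPM of *Pmp22*, 283 RPM of *Mal*, 354 RPM of *Cnp*, 33.3 RPM of *Sox10* and 31.1 RPM of *S100b*. *Cdh19*, at 25.4 RPM, lay below the 26.4 RPM of TA of mouse 6. This library alone among EOM before grafting had more than 3 reads of *Cldn11*, *Olig1*, *Opalin* or *Mog*, with 416 of *Cldn11*, 67 of *Olig1*, 53 of *Opalin* and 35 of *Mog*. Its MuSC list summed to 7265 RPM, its endothelial list to 2691 RPM and its leukocyte list to 1204 RPM, and the part of these in the values was not tested.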

How the results depend on the processing

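Before grafting, 7 of 7 genes of the set kept their sign in every alternative run that fitted them. In the change of EOM minus that of TA 8 of 8 did. Both hold the contrast that chose the genes, so the choice fixed these signs and their agreement is no test. Signs turned for EOM after against before grafting, *Pmp22* at 0.057 when centred on the median and *Cnp* at 0.072 with DESeq2, and *Mbp* between grafts turned to -0.27 with edgeR and -0.35 with DESeq2. Before grafting, 603 genes were called, 392 in Experiment 2 alone, 202 with all libraries and 503 to 688 leaving out 1 library, and the share higher went from 72.5% to 55.3% scaled without mitochondrial genes, 54.0% centred, 43.6% with edgeR and 44.4% with DESeq2. Of the 2 list calls there, 1 was left without a filter, with a stricter one, with all libraries, edgeR, DESeq2 or without the leading libraries (an alternative chosen after seeing the data), 0 in Experiment 2 alone, without mitochondrial genes or centred, and 0 to 3 leaving out 1 library. For EOM across grafting, 7762 calls became 4760 with the donor as replicate block, 1660 without mitochondrial genes, 1505 centred, 1287 with edgeR and 1742 with DESeq2 (6768 to 8709 leaving out 1 library), the share higher going from 5.93% to 44.5%, 57.9%, 70.5% and 68.7% in the last 4, and the 9 list calls became 5, 4 and 4 without mitochondrial genes, centred and with edgeR (9 to 11). For TA, 4542 calls became 2001 in Experiment 2 alone, 1845, 1746, 1184 and 1704 under the same 4 (3333 to 5101), the share higher going from 10.9% to 49.1%, 57.4%, 66.05% and 68.1%, and the 7 list calls became 4 with edgeR (7 to 8). Between grafts, 0 calls became 1 with the replicate block and 3 in Experiment 2 alone or with DESeq2 (0 leaving out 1 library). For the change of EOM minus that of TA, 0.208% of genes tested were called, 0.0425% without a filter, 0.111% with the replicate block, 0.108% in Experiment 2 alone, 0.00498% with all libraries, 0.0139% with edgeR, 0.714% with DESeq2 (71 higher, 32 lower), 0.0725% without the leading libraries, and from 0.125% without EOM of mouse 5 of Experiment 1 to 0.279% without the TA graft of mouse 3 of Experiment 2. The share higher there went from 26.7% to 41.7% without mitochondrial genes, 58.3% centred and 68.9% with DESeq2. The mean summed RPM of the 8 genes in EOM grafts was 362, and 531 when scaled to recovered reads outside mitochondrial genes. In EOM before grafting the sum went the other way in every passing library, from 438 to 4246 RPM down to 322 to 3060. The 2 scales differ in more than mitochondrial reads, since RPM is not scaled to the recovered reads on genes. The causes were not tested. Grafts of few cells limit what a missing read shows.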
